A study of Mus musculus with 30 samples.

Results

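The difference between rapamycin-treated and young mice was set side by side in 2 organs, kidney and heart, and the question for each probe was whether that difference was larger or smaller in kidney than in heart. The measure was an interaction: the treated minus young difference in kidney, minus the treated minus young difference in heart, in log2 units, so that a value of 1 means that the kidney fold change was higher than the heart fold change by a factor of 2. It rested on 16 of the 30 arrays of the series, 4 for each tissue and group: kidney and heart of 4 treated mice and of 4 young control mice, chosen by the tissue and by the group name in each array's source label. All the mice were wildtype C57BL/6JRj males obtained from Janvier, the cohorts were divided at random between rapamycin and vehicle, and the labels do not say what the young controls received. The treated mice belonged to a midlife cohort that started rapamycin at 13 months of age, stayed on it for more than 12 months and was analysed at 25 months, and the young controls were 25 weeks old. The dose of rapamycin is not given in the sources used here. Treated and young mice thus differed both in age and in drug, and the 2 cannot be told apart in this contrast. Both tissues of each mouse were on separate arrays, so every value compares the same 8 animals in the 2 tissues. A further 2 control mice of 25 months, with 1 kidney and 1 heart array each, entered the fit. Their levels are given beside some of the genes only. In the sample titles the young and the 25-month controls carry the opposite names to those in the source and age labels, and the source and age labels were followed.

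Rapamycin binds the small protein FKBP12, and the complex inhibits mTORC1, a kinase complex that couples amino acid, insulin and energy signals to protein synthesis, ribosome production and autophagy. The kidney is built largely of tubules, whose proximal segment reclaims filtered solutes and carries out much of the organ's metabolism of amino acids, steroids and foreign compounds. In male mice many proximal tubule genes depend on androgen. Ageing kidneys are known for tubular injury, leukocyte infiltration and matrix deposition, and ageing hearts for a return of fetal contractile genes and for changes in fatty acid use.

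The values are normalised log2 probe intensities of an Illumina BeadChip, and each is the level of 1 array on a scale that ran from 4.16 to 14.40. The tissue labels were borne out by the markers of each organ. Uromodulin, Umod, a protein of the thick ascending limb, read 13.09 to 14.06 in kidney and 4.33 to 4.79 in heart, and the heart myosin Myh6 read 13.81 to 14.04 in heart and 4.52 to 5.54 in kidney. Lrp2, the proximal tubule receptor megalin, was near background even in kidney, at 4.8 to 5.46. Some markers were also detected in the other organ. The kidney marker Slc34a1 was detected on 2 heart arrays and read up to 6.42 in heart, in treated mouse 2, against 14.06 to 14.31 in kidney. The kidney marker Aqp2 was detected on 2 heart arrays and Myh6 on 2 kidney arrays. The part of such signal in the interactions was not tested. The kidney array of treated mouse 2 stood apart: it detected 9989 probes against 11962 to 12777 on the other kidney arrays, and its median correlation with the other kidneys was 0.827 against 0.977 or more for each of the others. Every interaction is therefore given with all arrays and without that 1 array. The heart arrays of treated mice 1 and 3 also differed from the rest: they correlated at 0.992 with each other and at 0.975 to 0.985 with the other hearts, which correlated at 0.978 to 0.995 among themselves. The interactions of described genes with a heart difference past the test in either comparison are given without these 2 arrays as well.

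With all arrays, 93 of 15290 tested probes (0.608%) had an interaction past the threshold, an adjusted p under 0.05 by limma with Benjamini-Hochberg adjustment over all tested probes. The treated minus young difference was higher in kidney than in heart for 46 of them and lower for 47, and the split was 59 and 40 when arrays were scaled to their medians. Without the kidney array of treated mouse 2, 585 of 15202 probes (3.85%) passed, 291 higher and 294 lower, and they included all 93, each with the same sign. The median standard error of an interaction was 0.235 with that array and 0.167 without it. The mouse was a random effect in these counts. With the mouse term left out, 49 probes passed with all arrays and 284 without that array, and with a fixed term for each mouse 43 and 1072 passed.

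The kidney side carried most of the interactions. Within kidney, 663 probes (4.34%) differed between treated and young mice, 411 higher and 252 lower, and within heart 51 probes (0.334%) did, 45 higher and 6 lower. Both differences came from 1 fit with 1 spread per probe for the 2 tissues. The low-signal kidney array thus entered the heart standard errors too, so the count of 51 does not show how few probes changed in heart. Of the 93 interactions, 76 had a kidney difference past the test and no heart difference past it, 12 had the reverse, 1 had both in opposite directions and 4 had neither. The 17 probes that passed in both tissues with the same sign included 0 with an interaction, and without the low-signal array 6 of 117 such probes had one. Without the kidney array of treated mouse 2, 1216 probes (8%) differed in kidney and 569 (3.74%) in heart, and 366 of the 585 interactions had a kidney difference alone against 96 with a heart difference alone, 9 with both in opposite directions, 6 with both in the same direction and 108 with neither. An interaction of a gene that is not detected in 1 tissue repeats the difference in the other, so detection matters for how the counts read. A probe counted as detected in a group if at least 1 array of the group detected it at p under 0.05, so it could still be at background on the others. Of the 93 probes, 49 were detected in all 4 groups, which is 0.43% of 11388 such probes, and 28 were detected in kidney only, 2.36% of 1187. Without the array the counts were 403 of 11320 (3.56%) and 104 of 1119.

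**Figure D1:**
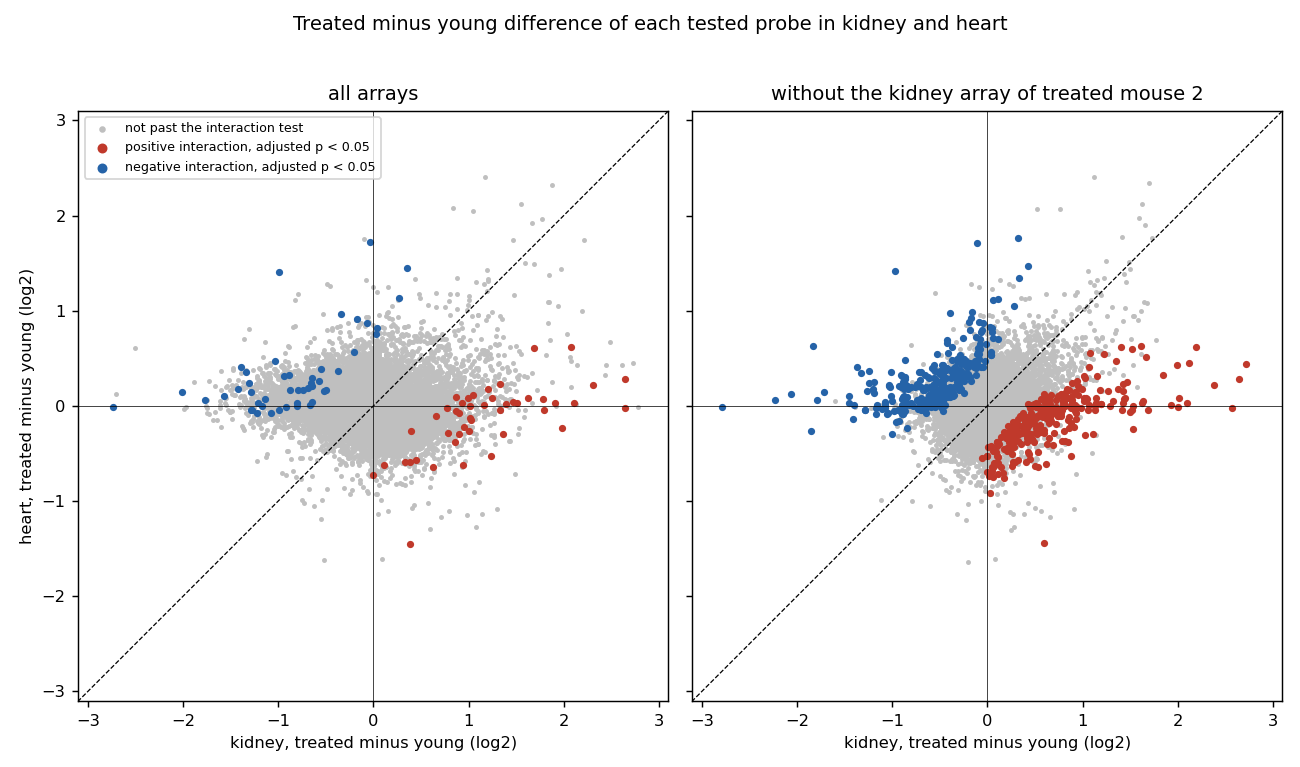
Treated minus young difference of each tested probe in kidney (x axis, log2) against heart (y axis, log2), with all arrays on the left and without the kidney array of treated mouse 2 on the right; coloured points passed the interaction test and the dashed line marks equal differences. The 93 coloured probes on the left and 585 on the right lie away from the dashed line, 76 and 366 of them with a kidney difference alone past the test.

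How many probes passed depended on single mice. Leaving out treated mouse 2 altogether raised the full count from 93 to 1043, and leaving out treated mouse 1 raised it to 142. Without treated mouse 3 or 4 it was 38 or 72, and without 1 of the young mice it was 31 to 38. In the comparison without the low-signal kidney array, the count of 585 became 154 without treated mouse 3, 417 without treated mouse 4 and 253 to 341 without 1 of the young mice, and it became 715 without treated mouse 1. Without the heart arrays of treated mice 1 and 3, a choice made after the data were seen, 15 probes passed with all other arrays, all of them among the 93, and 176 passed when the low-signal kidney array was left out too, 147 of them among the 585.

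Gene lists were read with 1 probe per gene, against the share of all genes past the test. With all arrays, 0.684% of 10528 genes passed the interaction test, 0.389% higher and 0.294% lower in kidney. The kidney difference passed for 4.62% (3.22% higher and 1.4% lower) and the heart difference for 0.389% (0.342% higher and 0.0475% lower). Without the low-signal array, 3.98% of 10466 genes passed the interaction test, 2.26% higher and 1.72% lower. The kidney difference then passed for 8.33% (5.27% higher and 3.06% lower) and the heart difference for 4.01% (2.26% higher and 1.75% lower).

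Genes that injured tubules switch on had the highest median interaction of all the lists with all arrays. Of 21 tested genes in a kidney injury list, 2 passed with all arrays, both higher in kidney. Without the low-signal array 7 were higher and 1 lower. The median interaction of the list was 0.85 with all arrays and 0.59 without that array, where the medians over all genes were 0.06 and 0.02. In kidney alone 12 of the 21 genes were higher in treated mice and 1 lower with all arrays, and the list's median difference was 0.93 in kidney and 0.16 in heart.

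Havcr1 encodes KIM-1, a receptor that injured proximal tubule cells display, and had the lowest adjusted p of the list. Its kidney levels, listed here and below for mice 1 to 4 in turn, were 5.59, 5.50, 5.2 and 4.82 in the young mice and 7.45, 7.46, 7.32 and 7.32 in the treated mice. Treated and young kidneys did not overlap, the treated mice lay close together, and all 8 heart arrays were at background, so the heart difference could not be measured. Most genes described were picked by their test results, so a lack of overlap, here and below, describes the values and adds no support. The share of all probes without overlap is not given here. The interaction, here in effect the kidney difference, was 2.08 ± 0.21 with all arrays (adjusted p = 0.000116) and 2.07 ± 0.21 without that array (adjusted p = 2.1e-05), and the 25-month control mice read 6.84 and 6.36 in kidney.

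Vcam1, an adhesion molecule for leukocytes that injured tubules and activated endothelium carry, was measured in both organs. It read 7.09, 6.50, 6.57 and 6.44 in young kidneys and 8.80, 8.31, 8.94 and 8.86 in treated kidneys. In heart it read 8.03, 8.39, 7.96 and 8.08 in the young and 9.04, 8.48, 8.74 and 8.69 in the treated mice. Treated mice lay above young mice in both organs without overlap, by a wider gap in kidney. The kidney difference was 2.07 ± 0.18 (adjusted p = 6.76e-06) and the heart difference 0.62 ± 0.18 (adjusted p = 0.205), and the latter passed the test when the fit left out the low-signal kidney array, at 0.62 ± 0.16 (adjusted p = 0.0341). The interaction was 1.45 ± 0.24 with all arrays (adjusted p = 0.0063) and 1.58 ± 0.21 without that array (adjusted p = 0.000381). With all arrays scaled to their medians, Vcam1 gave 1.15 and did not pass (adjusted p = 0.196), and without the heart arrays of treated mice 1 and 3 the 2 values were 1.60 (adjusted p = 0.0443) and 1.74 (adjusted p = 0.00158).

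Lcn2 encodes lipocalin 2, an iron-carrier-binding protein that stressed tubules release. Young kidneys read 5.94, 6.94, 6.42 and 6.34 and treated kidneys 8.99, 7.98, 9.65 and 8.79, so the groups did not overlap and the lowest treated value came from the low-signal array. In heart the levels were 5.67 to 6.09 in young and 6.19 to 6.49 in treated mice. The interaction was 2.01 ± 0.45 with all arrays (adjusted p = 0.0517) and 2.28 ± 0.40 without that array (adjusted p = 0.00399), so in the main fits Lcn2 passed only without the low-signal array. With all arrays Lcn2 passed with the mouse as a fixed block (adjusted p = 0.0216). It did not pass with no mouse term (adjusted p = 0.134) or with median scaling (adjusted p = 0.215). Timp1, an inhibitor of matrix metalloproteinases, showed the opposite dependence on mouse 2: treated kidneys read 6.44, 9.38, 6.62 and 7.53 against 4.71 to 5.29 in young kidneys, with mouse 2 the highest. Its interactions with and without that array were 2.11 ± 0.57 (adjusted p = 0.106) and 1.51 ± 0.33 (adjusted p = 0.0144), and the second was lost without treated mouse 3.

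**Figure D2:**
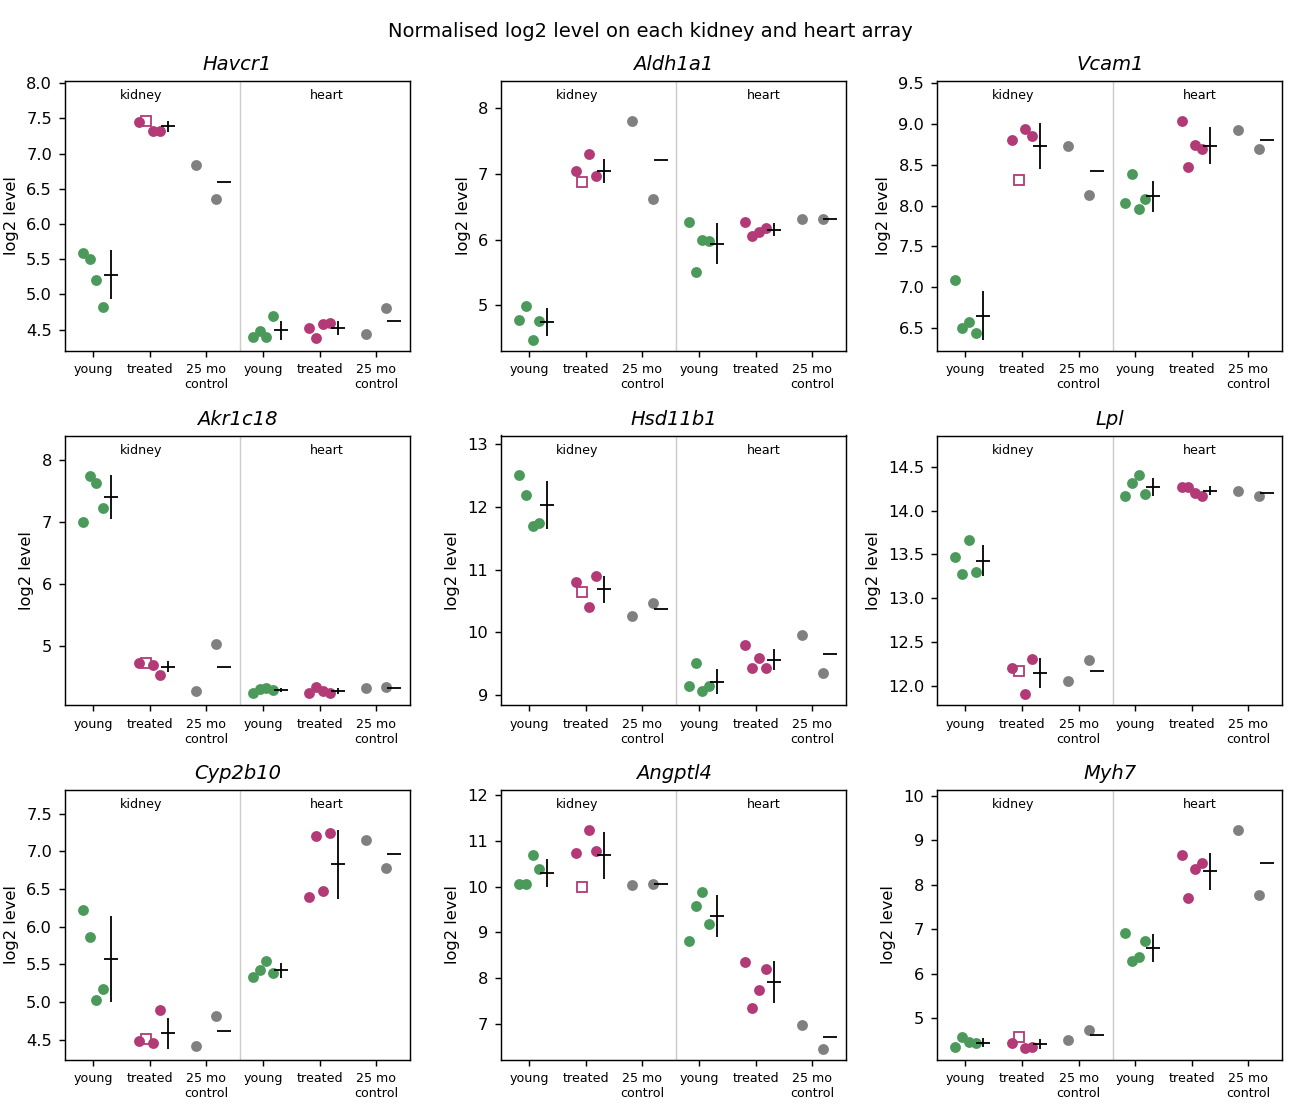
Normalised log2 level of 9 genes on each array, by tissue and group; horizontal bars are group means, vertical bars 1 SD for the groups of 4, and the open square is the kidney array of treated mouse 2. Havcr1, Aldh1a1 and Vcam1 lie higher and Akr1c18, Hsd11b1, Lpl and Cyp2b10 lower in treated than in young kidneys, with no overlap, while Angptl4 lies lower and Cyp2b10 and Myh7 higher in treated than in young hearts.

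With all arrays the lowest median interaction belonged to a list of genes that androgen maintains in the male mouse kidney. Of 20 listed genes 15 were tested, and with all arrays 2 passed lower and 1 higher in kidney. Without the low-signal array 7 passed lower and 1 higher. The median interaction was -0.97 and -0.47 in the 2 comparisons, and leaving out any 1 mouse or changing the processing, with groups by source label, left it between -1.19 and -0.37. In kidney alone 7 of the 15 were lower and 1 was higher in treated mice.

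Akr1c18, a steroid dehydrogenase that inactivates progesterone, had the lowest adjusted p of all the probes. Young kidneys read 7.0, 7.75, 7.64 and 7.23, and treated kidneys 4.72, 4.72, 4.69 and 4.53, which was not above background on any of the 4 arrays. Treated kidneys were thus at least 5.5-fold lower than young ones with all arrays and at least 6.17-fold lower without the low-signal array. The floor for these bounds was the lowest level of any probe detected at p under 0.05 on the array. The fitted interaction was -2.72 ± 0.21 with all arrays (adjusted p = 2.21e-06) and -2.77 ± 0.21 without that array (adjusted p = 7.5e-07); heart was at background on all 8 arrays and gave no measurable difference of its own. The 25-month control kidneys read 4.27 and 5.03.

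Hsd11b1, which regenerates active glucocorticoid inside cells, was measured in both organs. It read 12.50, 12.18, 11.70 and 11.74 in young and 10.80, 10.64, 10.41 and 10.90 in treated kidneys, and 9.15, 9.51, 9.06 and 9.14 in young and 9.80, 9.44, 9.60 and 9.43 in treated hearts. The kidney groups did not overlap, with treated mice lower, and in heart they overlapped. The kidney difference was -1.34 ± 0.19 (adjusted p = 0.000478), the heart difference 0.35 ± 0.19 (adjusted p = 0.629) and the interaction -1.69 ± 0.24 with all arrays (adjusted p = 0.00194) and -1.68 ± 0.24 without that array (adjusted p = 0.000647). Of 4 probes for this gene 3 passed, with interactions between -1.80 and 0.08 with all arrays.

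Odc1, the first enzyme of polyamine synthesis and a classic androgen target of mouse kidney, read 13.31, 13.11, 12.97 and 13.05 in young and 11.92, 13.12, 11.50 and 12.21 in treated kidneys. Treated mice 1, 3 and 4 lay below every young mouse and mouse 2, the low-signal array, lay among them. Heart levels were 9.48 to 9.80 in young and 9.92 to 10.15 in treated mice, and the interactions with and without that array were -1.29 ± 0.32 (adjusted p = 0.0822) and -1.60 ± 0.21 (adjusted p = 0.000279). Gusb, the lysosomal beta-glucuronidase, read 10.44, 10.89, 9.86 and 9.75 in young and 8.95, 10.10, 8.54 and 8.92 in treated kidneys, with the low-signal array inside the young range. Its interactions were -0.97 ± 0.35 (adjusted p = 0.181) and -1.27 ± 0.26 (adjusted p = 0.0104), and its 3 probes lay between -2.16 and -0.97 with all arrays, 2 of them past the test.

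Slc22a7, an organic anion transporter, and Acsm3, a medium-chain acyl-CoA synthetase, also fell in kidney. Slc22a7 read 6.44, 8.07, 5.77 and 6.23 in treated kidneys against 7.61 to 8.15 in young ones, and its interactions were -1.10 ± 0.44 (adjusted p = 0.197) and -1.59 ± 0.22 (adjusted p = 0.000565). Acsm3 read 11.76, 8.22, 10.22 and 11.02 in treated kidneys against 12.49 to 13.08 in young ones, with interactions of -3.12 ± 0.74 (adjusted p = 0.0677) and -2.46 ± 0.54 (adjusted p = 0.0157), the second lost without treated mouse 3 or young mouse 1. The 3 probes of Acsm3 ran from -3.12 to -0.42 with all arrays, 0 of them past the test. Without the low-signal array they ran from -2.46 to -0.56, and all 3 passed. Aoc1, diamine oxidase, which degrades histamine and polyamines, was the 1 member that was higher: treated kidneys read 7.74, 9.74, 8.07 and 7.98 and young kidneys 6.24 to 6.50, with no overlap. Its interaction was 2.22 ± 0.38 with all arrays (adjusted p = 0.0096) and 1.77 ± 0.15 without that array (adjusted p = 2.47e-06).

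To set the sequences beside these values, the promoters of Akr1c18, Hsd11b1 and Odc1, that is the members that passed lower with all arrays and the polyamine enzyme, are printed from RefSeq on GRCm38.p6, each running from 250 bases before the gene start to 50 bases from it on. They lie at chr13:4150597-4150896 on the minus strand, chr1:193242311-193242610 on the minus strand and chr12:17544623-17544922 on the plus strand. Capitals mark the first 10 bases from the gene start and any match to a motif named below.
Akr1c18: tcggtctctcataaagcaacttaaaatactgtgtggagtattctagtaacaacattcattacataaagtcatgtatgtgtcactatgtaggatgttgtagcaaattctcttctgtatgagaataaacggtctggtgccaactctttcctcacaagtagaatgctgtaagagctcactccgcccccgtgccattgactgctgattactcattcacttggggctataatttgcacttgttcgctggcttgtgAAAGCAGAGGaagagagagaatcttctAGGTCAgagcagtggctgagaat
Hsd11b1: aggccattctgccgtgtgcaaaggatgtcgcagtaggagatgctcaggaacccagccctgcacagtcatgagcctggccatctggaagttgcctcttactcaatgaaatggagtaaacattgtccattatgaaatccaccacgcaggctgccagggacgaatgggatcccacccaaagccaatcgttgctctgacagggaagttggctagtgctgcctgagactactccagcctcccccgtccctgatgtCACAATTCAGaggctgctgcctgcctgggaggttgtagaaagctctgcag
Odc1: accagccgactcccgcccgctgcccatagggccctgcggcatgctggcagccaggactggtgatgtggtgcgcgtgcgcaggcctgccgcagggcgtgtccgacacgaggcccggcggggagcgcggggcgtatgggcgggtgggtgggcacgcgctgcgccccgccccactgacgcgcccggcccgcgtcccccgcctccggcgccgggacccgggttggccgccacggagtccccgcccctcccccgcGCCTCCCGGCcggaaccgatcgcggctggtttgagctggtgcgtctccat
Motifs were searched on both strands. The first was AGAACA, letters that the androgen and glucocorticoid receptors bind as a repeat. The second, AGGTCA, is read by many other nuclear receptors. The third was TATAAA, bound by the general initiation machinery. In these 3 windows the matches were 1 AGGTCA, in Akr1c18 after the gene start, and no other. Promoters were found for 16 of the 20 listed genes, 21 promoters in all, of which 2 held the first motif, 2 the second and 4 the third. Among all 32851 promoters of this length the shares were 19%, 16.3% and 13.6%.

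Proximal tubule genes as a list had a median interaction of -0.46 with all arrays and -0.28 without the low-signal array, with 1 of 27 higher and 1 lower in the first and 1 higher and 4 lower in the second. Slc34a3, a sodium-phosphate cotransporter of the brush border, read 7.98, 7.67, 8.14 and 8.04 in young and 6.50, 7.44, 6.50 and 6.53 in treated kidneys, where the low-signal array was the highest treated value and still below every young one. Heart was at background for it. The Slc34a3 interaction was -1.25 ± 0.22 with all arrays (adjusted p = 0.0126) and -1.48 ± 0.13 without that array (adjusted p = 2.47e-06). Hpd, which breaks down tyrosine, went the other way and read 6.20 to 6.84 in young and 7.50 to 8.61 in treated kidneys, also with heart at background. The Hpd interaction was 1.48 ± 0.29 with all arrays (adjusted p = 0.0239) and 1.39 ± 0.28 without that array (adjusted p = 0.0105), the second lost without treated mouse 3. Ttr, which carries thyroxine and retinol-binding protein, read 11.45, 11.88, 11.25 and 11.31 in young and 9.44, 11.17, 8.79 and 9.48 in treated kidneys, with interactions of -1.81 ± 0.46 (adjusted p = 0.0864) and -2.29 ± 0.27 (adjusted p = 9.36e-05). Farther down the nephron, the thiazide-sensitive cotransporter Slc12a3 had interactions of 0.43 ± 0.33 (adjusted p = 0.416) and 0.80 ± 0.16 (adjusted p = 0.00915) with and without the low-signal array, the second lost without treated mouse 3. Its 3 probes ran from -0.57 to 0.43 with all arrays, and without the array from 0.18 to 0.80, with 1 of them past the test.

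Interactions of cytochrome P450 genes took both signs. Of 19 tested, 1 was higher and 1 lower with all arrays, 3 were higher and 3 lower without the low-signal array, and the median interactions were -0.51 and -0.34. Outside that list, Cyp2b10, a target of the constitutive androstane receptor in mouse liver, was the 1 probe of the 93 that passed in both organs in opposite directions. It read 6.22, 5.87, 5.03 and 5.17 in young and 4.48, 4.51, 4.46 and 4.89 in treated kidneys, where 1 of the 4 treated arrays was above background. In heart it read 5.33, 5.42, 5.55 and 5.38 in young and 6.40, 7.21, 6.47 and 7.24 in treated mice. Treated mice lay below all young mice in kidney and above all young mice in heart. The kidney difference was -0.99 ± 0.25 (adjusted p = 0.0298), the heart difference 1.41 ± 0.25 (adjusted p = 0.0148) and the interaction -2.40 ± 0.32 with all arrays (adjusted p = 0.000996) and -2.39 ± 0.33 without that array (adjusted p = 0.000381). Without the heart arrays of treated mice 1 and 3 the 2 interactions of Cyp2b10 were -2.77 (adjusted p = 0.00271) and -2.78 (adjusted p = 0.000396). The 25-month control mice read 4.42 and 4.82 in kidney and 7.15 and 6.78 in heart.

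Cyp4a12a, a fatty acid hydroxylase of male mouse kidney that makes the vasoconstrictor 20-HETE, read 12.76, 12.46, 11.92 and 11.94 in young and 11.14, 10.93, 10.44 and 11.40 in treated kidneys. The Cyp4a12a interaction was -1.44 ± 0.32 with all arrays (adjusted p = 0.0435) and -1.41 ± 0.32 without that array (adjusted p = 0.0187), the second lost without treated mouse 3 or young mouse 1 or 2. Cyp2d12, also outside the list and of the drug-metabolising CYP2D family, read 9.66 to 10.52 in young and 11.55 to 12.23 in treated kidneys. The Cyp2d12 interaction was 1.84 ± 0.23 with all arrays (adjusted p = 0.00074) and 1.74 ± 0.22 without that array (adjusted p = 0.000176). Heart was at background for Cyp2d12 on all 8 arrays and for Cyp4a12a on 7 of them. Cyp2a5, which oxidises coumarin and nicotine, read 12.31 to 12.38 in young and 12.92 to 13.52 in treated kidneys. The Cyp2a5 interaction was 1.19 ± 0.24 with all arrays (adjusted p = 0.0308) and 1.33 ± 0.23 without that array (adjusted p = 0.00315). Its 4 probes disagreed with all arrays, from -0.44 to 1.43, and ran from 0.67 to 1.33 without the low-signal array. Whether a probe also binds close relatives of its gene was not checked for these families, nor for Gsta2, Akr1c18, Acot1, Lyz1, C4b, Mt1 and H4c8.

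Aldehyde and electrophile detoxification genes had interactions past the test in 1 direction: 2 of 29 tested genes passed with all arrays and 6 without the low-signal array, all higher in kidney, with medians of 0.21 and 0.12. Aldh1a1, which makes retinoic acid and clears aldehydes, was above background in 1 of 4 young kidneys, at 4.77, 4.98, 4.47 and 4.75, and in all treated kidneys, at 7.04, 6.88, 7.30 and 6.97. Heart levels overlapped, at 5.51 to 6.27 in young and 6.05 to 6.27 in treated mice. The kidney difference was 2.30 ± 0.21 (adjusted p = 7.05e-06), the heart difference 0.22 ± 0.21, and the interaction 2.09 ± 0.27 with all arrays (adjusted p = 0.000809) and 2.17 ± 0.27 without that array (adjusted p = 0.000176). The 25-month control kidneys read 7.81 and 6.62. Its relative Aldh1a7 read 6.12 to 6.51 in young and 7.01 to 7.73 in treated kidneys. The Aldh1a7 interaction was 1.03 ± 0.20 with all arrays (adjusted p = 0.0186) and 1.19 ± 0.15 without that array (adjusted p = 0.000176). Gsta2, a glutathione transferase, lay below every young value on the low-signal array and above them on the rest, reading 9.72, 7.49, 10.05 and 9.37 against 7.56 to 8.6 in young kidneys. In the 25-month control kidneys Gsta2 read 11.20 and 9.89. Its interactions with and without the low-signal array were 1.04 ± 0.54 (adjusted p = 0.267) and 1.58 ± 0.35 (adjusted p = 0.0157), the second lost without treated mouse 3 or young mouse 1 or 2.

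Genes of amino acid, sugar and lipid metabolism took both directions. Kynu, which cleaves kynurenine toward NAD synthesis, had the highest interaction of the genes described here. It read 4.77, 4.56, 4.82 and 5.12 in young kidneys, 1 of them above background, and 7.14, 7.76, 8.48 and 6.47 in treated kidneys. All 8 hearts were at background. The Kynu interaction was 2.67 ± 0.39 with all arrays (adjusted p = 0.00215) and 2.6 ± 0.39 without that array (adjusted p = 0.000852). Hao2, a peroxisomal oxidase of hydroxy acids, read 9.93, 8.99, 10.07 and 9.91 in treated kidneys against 7.17 to 8.28 in young ones, also with heart at background. The Hao2 interaction was 1.70 ± 0.31 with all arrays (adjusted p = 0.0147) and 1.93 ± 0.25 without that array (adjusted p = 0.000257). Neither gene overlapped between young and treated kidneys.

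Fbp2, the muscle form of the gluconeogenic enzyme fructose bisphosphatase, read 7.36, 7.17, 7.36 and 7.42 in young and 8.10, 9.42, 8.97 and 8.29 in treated kidneys, with hearts at 8.98 to 9.30 and 8.67 to 8.91. Its interaction was 1.66 ± 0.28 with all arrays (adjusted p = 0.00646) and 1.41 ± 0.20 without that array (adjusted p = 0.000452). Gpt, alanine aminotransferase, rose in kidney by 0.86 ± 0.16 (adjusted p = 0.00544), stood at -0.38 ± 0.16 (adjusted p = 0.483) in heart, and had an interaction of 1.24 ± 0.21 with all arrays (adjusted p = 0.00746) and 1.16 ± 0.20 without that array (adjusted p = 0.00326). Lpl, the lipase that releases fatty acids from circulating triglyceride, read 13.47, 13.28, 13.66 and 13.30 in young and 12.21, 12.17, 11.91 and 12.31 in treated kidneys, and 14.17 to 14.40 and 14.17 to 14.27 in young and treated hearts. Every treated kidney lay below every young kidney, and the hearts overlapped at the top of the scale, which ended at 14.40, so a heart difference could hardly be measured and the interaction is in effect the kidney difference. The interaction of Lpl was -1.24 ± 0.15 with all arrays (adjusted p = 0.000555) and -1.24 ± 0.14 without that array (adjusted p = 7.95e-05). Aacs, a cytosolic enzyme that activates acetoacetate for lipid synthesis, gave -1.25 ± 0.26 with all arrays (adjusted p = 0.0357) and -1.24 ± 0.27 without that array (adjusted p = 0.0136), and Psat1, of serine synthesis, gave -1.31 ± 0.33 (adjusted p = 0.0833) and -1.12 ± 0.30 (adjusted p = 0.0442) in the same order. The call for Aacs without that array was lost without young mouse 1, and the call for Psat1 was lost without 8 of the 10 mice in turn.

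Macrophage genes had a positive median interaction, with few single genes past the test. Of 20 tested macrophage genes 0 passed by limma with all arrays, and 3 passed without the low-signal array, all higher in kidney. An unadjusted p under 0.05 was found for 11 of the 20 with all arrays, against 3158 of all 15290 tested probes. The median interactions of the list were 0.61 and 0.59. With all arrays 14 of the 20 were higher in treated than in young kidneys and 1 in treated than in young hearts, and without the array 16 and 6 were. The summed level of the list, as a log2 value, ran from 11.14 to 11.62 in young and 12.49 to 13.89 in treated kidneys (to 12.91 without the low-signal array), and from 12.74 to 13.31 in young and 13.36 to 13.79 in treated hearts. In such bulk tissue a change in the number of cells and a change in RNA per cell cannot be told apart.

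C1qa, the first chain of complement C1q and a product of tissue macrophages, read 5.62, 5.39, 5.21 and 5.27 in young and 6.85, 6.59, 6.85 and 7.20 in treated kidneys, and 6.75, 6.98, 6.65 and 6.66 in young and 7.33, 7.42, 7.33 and 7.47 in treated hearts. Treated mice lay above young mice in both organs without overlap, and the gap was wider in kidney. Its interaction was 0.87 ± 0.21 with all arrays (adjusted p = 0.067) and 0.98 ± 0.19 without that array (adjusted p = 0.00793). The C1qa values without the heart arrays of treated mice 1 and 3 were 0.81 (adjusted p = 0.449) and 0.93 (adjusted p = 0.0594). Lyz1, a lysozyme, had interactions with and without that array of 1.55 ± 0.38 (adjusted p = 0.0735) and 1.15 ± 0.23 (adjusted p = 0.00837). Ms4a7, a macrophage membrane protein, gave 1.56 ± 0.39 (adjusted p = 0.0816) and 1.17 ± 0.24 (adjusted p = 0.0115) in the same order, with the low-signal array the highest treated kidney in both. The 3 probes of Lyz1 ran from -1.10 to 1.55 with all arrays and did not share a sign. Without the low-signal array they ran from -1.05 to 1.15, and only 1 of the 3, the probe used here, was positive and passed. The second call for Ms4a7 was lost without treated mouse 3 or 4.

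Among 16 chemokine genes 1 passed with all arrays and 2 without the low-signal array, with medians of 0.305 and 0.312. Cx3cl1, the membrane-bound ligand that draws cells bearing the fractalkine receptor, read 8.33, 8.63, 8.44 and 8.58 in young and 9.25, 10.06, 9.25 and 9.55 in treated kidneys, without overlap, and 6.40 to 6.80 and 6.26 to 6.73 in young and treated hearts. The interaction was 1.18 ± 0.21 with all arrays (adjusted p = 0.012) and 1.00 ± 0.16 without that array (adjusted p = 0.00135). Of 11 complement genes 1 passed with all arrays, and 2 higher and 1 lower passed without the array. Cfi, the protease that inactivates C3b and C4b, read 5.73, 5.64, 5.56 and 5.46 in young and 6.95, 8.41, 7.49 and 7.18 in treated kidneys, with 2 of 8 hearts above background. The Cfi interaction was 1.88 ± 0.27 with all arrays (adjusted p = 0.00215) and 1.59 ± 0.15 without that array (adjusted p = 6.44e-06). Cd55, which hastens the decay of the convertases on cell surfaces, read 6.63, 7.04, 6.61 and 6.36 in young and 5.81, 6.21, 5.41 and 5.62 in treated kidneys. With and without the low-signal array, the Cd55 interactions were -0.82 ± 0.21 (adjusted p = 0.0916) and -0.97 ± 0.18 (adjusted p = 0.0054). C4b itself differed in both organs without the array: with all arrays the difference was 1.97 ± 0.37 (adjusted p = 0.00544) in kidney and 1.44 ± 0.37 (adjusted p = 0.124) in heart, and without the array 1.5 ± 0.25 (adjusted p = 0.000738) and 1.43 ± 0.23 (adjusted p = 0.00195). The interactions of C4b in the same order were 0.53 ± 0.48 (adjusted p = 0.482) and 0.07 ± 0.31 (adjusted p = 0.927), and its sign turned under other settings. The C4b values without the heart arrays of treated mice 1 and 3 were 0.77 (adjusted p = 0.649) and 0.30 (adjusted p = 0.74). MHC class II genes had 0 of 9 past the limma test in both comparisons, with 0 at an unadjusted p under 0.05, and in kidney alone 5 of the 9 were higher with all arrays. Over all probes, 3158 of 15290 with all arrays and 3309 of 15202 without the low-signal array had such an unadjusted p.

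Matrix genes had interactions past the test in 1 direction: of 32 tested, 4 passed with all arrays and 7 without the low-signal array, all higher in kidney, with medians of 0.54 and 0.44. Dcn, the collagen-binding proteoglycan decorin, read 9.35, 9.12, 9.18 and 9.11 in young and 10.00, 10.48, 10.01 and 10.45 in treated kidneys, and 12.52 to 12.66 and 12.48 to 12.90 in hearts. Its interaction was 0.93 ± 0.17 with all arrays (adjusted p = 0.0147) and 0.84 ± 0.16 without that array (adjusted p = 0.00602). Mgp, an inhibitor of calcification, gave 1.10 ± 0.24 with all arrays (adjusted p = 0.0457) and 1.19 ± 0.23 without that array (adjusted p = 0.00792). Tgfbi, a matrix protein induced by TGF-beta, gave in the same order 1.08 ± 0.22 (adjusted p = 0.0308) and 0.92 ± 0.18 (adjusted p = 0.00915), and the gelatinase Mmp2 gave 0.91 ± 0.20 (adjusted p = 0.0435) and 0.76 ± 0.15 (adjusted p = 0.00978). Young and treated kidneys did not overlap for any of these 4 genes, which were picked for passing the test. A second probe of Tgfbi gave -0.03 with all arrays. With the mouse as a fixed block, none of the 4 passed with all arrays, at adjusted p = 0.069 for Dcn, 0.0961 for Mgp, 0.0656 for Tgfbi and 0.103 for Mmp2, nor did any with median scaling, and with no mouse term only Dcn did. Without the low-signal array all 4 passed under each of these settings. The Tgfbi values without the heart arrays of treated mice 1 and 3 were 1.09 (adjusted p = 0.237) and 0.92 (adjusted p = 0.0517). Mmp14, the membrane protease that activates Mmp2, read 7.41, 9.73, 7.60 and 7.92 in treated kidneys against 6.39 to 6.64 in young ones, with the low-signal array the highest. The Mmp14 interactions with and without the low-signal array were 1.63 ± 0.44 (adjusted p = 0.101) and 1.11 ± 0.17 (adjusted p = 0.0013). Edn1, endothelin 1, a vasoconstrictor peptide, read 6.52, 8.69, 7.03 and 7.29 against 5.39 to 5.70. With and without the low-signal array, the Edn1 interactions were 1.63 ± 0.40 (adjusted p = 0.0797) and 1.21 ± 0.24 (adjusted p = 0.00888), the second lost without treated mouse 3.

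Further genes with an interaction past the test in at least 1 comparison had other roles. Cdkn1c, the cell cycle inhibitor p57, read 8.81, 8.86, 9.08 and 9.06 in young and 9.80, 11.27, 9.85 and 9.82 in treated kidneys, and 9.49, 9.49, 9.60 and 9.69 in young and 8.79, 9.28, 8.98 and 9.12 in treated hearts. Treated mice were above all young mice in kidney and below all young mice in heart. The heart difference passed in the fit without the low-signal kidney array, at -0.52 ± 0.12 (adjusted p = 0.0178). The Cdkn1c interaction was 1.76 ± 0.31 with all arrays (adjusted p = 0.0126) and 1.40 ± 0.16 without that array (adjusted p = 7.95e-05). Without the heart arrays of treated mice 1 and 3 the Cdkn1c values were 1.62 (adjusted p = 0.191) and 1.24 (adjusted p = 0.00132). H4c8, a replication histone gene, read 7.59 to 8.18 in young and 6.78 to 7.04 in treated kidneys and 10.01 to 10.21 and 10.34 to 10.49 in hearts, opposite orders without overlap. The H4c8 interaction was -1.25 ± 0.17 with all arrays (adjusted p = 0.000996) and -1.21 ± 0.16 without that array (adjusted p = 0.000275). Khdrbs3, an RNA-binding splicing regulator, gave -1.21 ± 0.22 with all arrays (adjusted p = 0.0126) and -1.23 ± 0.22 without that array (adjusted p = 0.00447). Myo5a, a motor that carries vesicles along actin, read 6.53, 4.94, 5.58 and 5.48 in treated kidneys against 7.02 to 7.12 in young ones. The Myo5a interaction was -1.60 ± 0.31 with all arrays (adjusted p = 0.022) and -1.38 ± 0.26 without that array (adjusted p = 0.00615). Ace, the angiotensin-converting enzyme, gave -1.50 ± 0.31 with all arrays (adjusted p = 0.0328) and -1.35 ± 0.29 without that array (adjusted p = 0.0133), the second lost without treated mouse 3. Hspb1, a small heat shock protein, and Mt1, a metallothionein, passed without the low-signal array. With and without it, Hspb1 gave 1.51 ± 0.43 (adjusted p = 0.116) and 1.03 ± 0.22 (adjusted p = 0.0136) and Mt1 gave 0.87 ± 0.22 (adjusted p = 0.0847) and 0.68 ± 0.16 (adjusted p = 0.0249). The second call for Hspb1 was lost without treated mouse 3 and that for Mt1 without 5 of the 10 mice in turn.

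**Figure D3:**
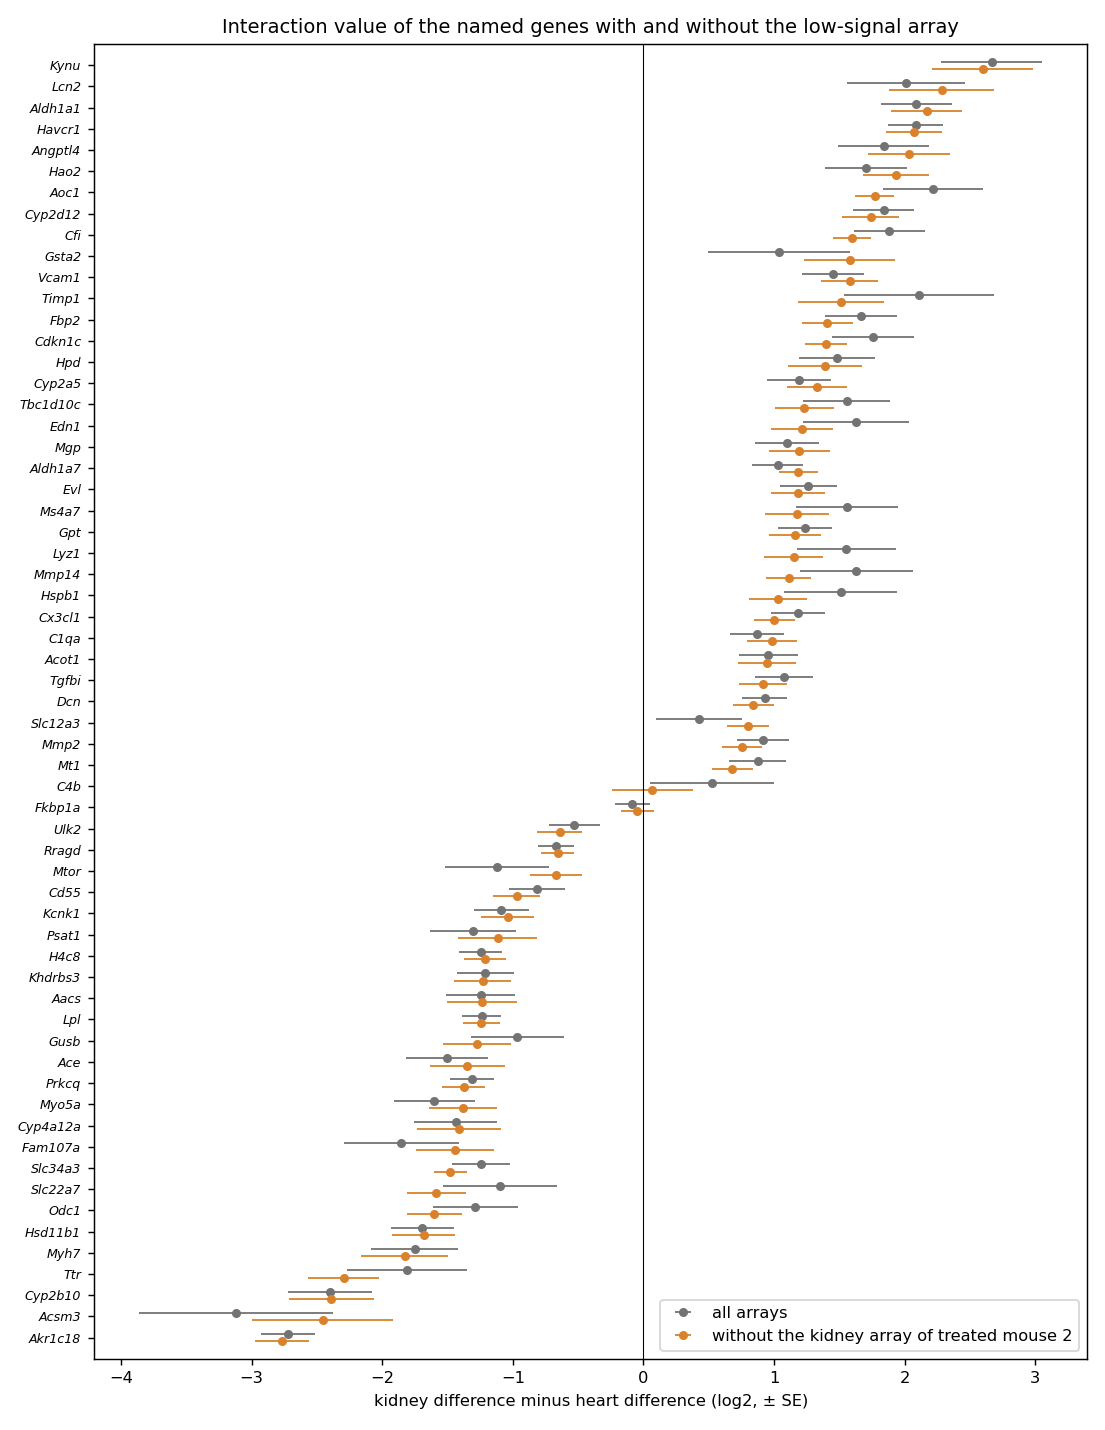
Interaction value (kidney difference minus heart difference, log2, with bars of 1 standard error) of each named gene with all arrays in grey and without the kidney array of treated mouse 2 in orange. Kynu is the highest with all arrays, at 2.67, Acsm3 the lowest, at -3.12, and the standard errors of Timp1, Mmp14, Aoc1 and Slc22a7 shrink without the array.

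In a smaller set, Angptl4, Acot1, Myh7, Kcnk1, Prkcq and Fam107a among the named genes, the heart difference passed the test with all arrays and the kidney difference did not. Angptl4, an inhibitor of lipoprotein lipase induced by fatty acids through PPAR receptors, read 8.80, 9.57, 9.87 and 9.17 in young and 8.35, 7.34, 7.73 and 8.19 in treated hearts. Kidneys overlapped, at 10.05 to 10.69 in young and 10.00 to 11.24 in treated mice. Every treated heart lay below every young heart. The heart difference was -1.45 ± 0.27 (adjusted p = 0.0241) and the interaction 1.84 ± 0.35 with all arrays (adjusted p = 0.0186) and 2.03 ± 0.32 without that array (adjusted p = 0.0013). Without the heart arrays of treated mice 1 and 3 the interaction was 1.96 with all other arrays (adjusted p = 0.115) and 2.18 without the low-signal kidney array too (adjusted p = 0.00595). The 25-month control hearts were lower still, at 6.96 and 6.45. Acot1, an acyl-CoA thioesterase that the same receptors induce, read 10.13 to 10.57 in young and 9.15 to 9.63 in treated hearts. With and without the low-signal array, the Acot1 interactions were 0.96 ± 0.22 (adjusted p = 0.0633) and 0.95 ± 0.22 (adjusted p = 0.0252), the second lost without treated mouse 3 or young mouse 1, 2 or 4, and its 2 probes ran from -0.20 to 0.96 with all arrays. Without those 2 heart arrays the Acot1 values were 1.16 (adjusted p = 0.138) and 1.15 (adjusted p = 0.0334). Among 18 tested genes of fatty acid sensing by PPAR receptors, 1 passed with all arrays and 3 without the low-signal array, all higher in kidney, with medians of 0.28 and 0.25.

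Myh7, the beta myosin heavy chain of slow muscle and of the fetal mouse heart, was at background in all 8 kidneys, so its interaction is in effect the heart difference with the sign turned. It read 6.93, 6.28, 6.38 and 6.75 in young and 8.67, 7.70, 8.36 and 8.49 in treated hearts, without overlap, and the 25-month control hearts read 9.24 and 7.77. The interaction was -1.75 ± 0.33 with all arrays (adjusted p = 0.0191) and -1.83 ± 0.33 without that array (adjusted p = 0.00498), and without the heart arrays of treated mice 1 and 3 it was -1.54 (adjusted p = 0.237) and -1.61 (adjusted p = 0.0509). Kcnk1, a potassium leak channel, read 4.88, 5.02, 4.85 and 5.22 in young and 6.53, 6.64, 6.13 and 6.47 in treated hearts, also without overlap. Kidney levels were 9.26 to 9.53 and 9.55 to 10.09. The Kcnk1 interaction was -1.09 ± 0.21 with all arrays (adjusted p = 0.0216) and -1.04 ± 0.20 without that array (adjusted p = 0.00793). Without those 2 heart arrays it was -1.20 (adjusted p = 0.071) and -1.17 (adjusted p = 0.0137). Prkcq, protein kinase C theta, read 5.15, 5.76, 5.34 and 5.17 in young and 6.44, 6.41, 6.20 and 6.22 in treated hearts. Its kidney levels were near the low end of the scale, at 5.04 to 5.24 in young and 4.58 to 4.93 in treated mice. The Prkcq interaction was -1.31 ± 0.17 with all arrays (adjusted p = 0.000809) and -1.38 ± 0.17 without that array (adjusted p = 0.000105). Without those heart arrays the value for Prkcq was -1.29 (adjusted p = 0.0214) and -1.36 (adjusted p = 0.00166).

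Fam107a, an actin-associated stress gene, read 5.65, 5.03, 5.66 and 6.15 in young and 6.96, 7.04, 8.0 and 7.52 in treated hearts, without overlap. The Fam107a interactions with and without the low-signal array were -1.85 ± 0.44 (adjusted p = 0.067) and -1.44 ± 0.30 (adjusted p = 0.0108). Without those 2 heart arrays the Fam107a values were -1.79 (adjusted p = 0.358) and -1.34 (adjusted p = 0.0358). Evl, which promotes actin filament growth, and Tbc1d10c, an inhibitor of calcineurin and Ras in lymphocytes, took the other sign: for both, the kidney difference passed with all arrays and the heart difference without the low-signal kidney array. Evl read 6.48, 6.40, 6.54 and 6.61 in young and 5.51, 6.28, 5.52 and 6.16 in treated hearts. Its kidney levels were near the low end of the scale, at 4.56 to 4.85 in young and 5.07 to 5.70 in treated mice. The Evl interaction was 1.26 ± 0.22 with all arrays (adjusted p = 0.00986) and 1.18 ± 0.21 without that array (adjusted p = 0.00353). Tbc1d10c read 8.51, 9.04, 8.53 and 8.44 in young and 8.13, 8.0, 8.15 and 7.76 in treated hearts and 5.71 to 5.99 and 6.26 to 7.76 in kidneys. The Tbc1d10c interaction was 1.56 ± 0.33 with all arrays (adjusted p = 0.0401) and 1.23 ± 0.22 without that array (adjusted p = 0.00505). Its highest heart, young mouse 2, also held the most T and B lymphocyte signal: the summed level of those markers ran from 7.66 to 10.64 in young hearts and from 7.86 to 8.95 in treated hearts, and the part of this in the result was not tested. Without the heart arrays of treated mice 1 and 3, the interactions with all other arrays were 0.91 for Evl (adjusted p = 0.116) and 1.71 for Tbc1d10c (adjusted p = 0.191), and without the low-signal kidney array too they were 0.80 (adjusted p = 0.0146) and 1.37 (adjusted p = 0.0157). Contractile genes of heart as a list had a median interaction of 0.10 with all arrays and 0.09 without the low-signal array, with 1 of 28 lower in the first and 1 higher and 3 lower in the second.

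For the target of the drug and its partners, the counts past the interaction test were near the share of all genes. That share was 0.684% with all arrays and 3.98% without the low-signal array. Of 14 tested genes for the mTOR complexes and the FKBP proteins that bind rapamycin, 0 passed by limma in either comparison. An unadjusted p under 0.05 was found for 1 and 2 of them, against 3158 of 15290 and 3309 of 15202 probes. The medians were -0.02 and -0.04, where those of all genes were 0.06 and 0.02. Mtor read 9.74, 9.36, 9.43 and 9.65 in young and 9.35, 7.37, 9.02 and 9.29 in treated kidneys, with the low-signal array far below the rest, and 7.88 to 8.02 and 8.04 to 8.69 in hearts. In the 25-month controls Mtor read 8.27 and 8.87 in kidney and 7.75 and 7.90 in heart. Its interactions were -1.12 ± 0.40 (adjusted p = 0.173) and -0.67 ± 0.20 (adjusted p = 0.0627). Fkbp1a, which encodes FKBP12, ran from 8.78 to 9.19 in kidney and from 9.54 to 9.86 in heart. The Fkbp1a interactions with and without the low-signal array were -0.08 ± 0.14 (adjusted p = 0.702) and -0.05 ± 0.13 (adjusted p = 0.857). Among 33 genes upstream and downstream of mTOR 1 passed, lower in kidney, in each comparison. That gene was Rragd, a GTPase that recruits mTORC1 to lysosomes: it read 7.05, 7.34, 7.42 and 7.07 in young and 6.67, 6.67, 6.75 and 6.74 in treated kidneys, 7.79 to 8.06 and 7.99 to 8.16 in hearts. The Rragd interaction was -0.67 ± 0.13 with all arrays (adjusted p = 0.0272) and -0.66 ± 0.13 without that array (adjusted p = 0.00818). Treated kidneys lay below every young kidney for Rragd, and the 25-month control kidneys read 7.05 and 7.15. Ulk2, an autophagy kinase that mTORC1 restrains, had interactions of -0.53 ± 0.19 (adjusted p = 0.18) and -0.64 ± 0.17 (adjusted p = 0.043) with and without the low-signal array, the second lost without 6 of the 10 mice in turn, and its 2 probes took opposite signs. Cytosolic ribosomal protein genes are a class that mTORC1 controls through translation. Of 52 tested, 0 passed by limma with all arrays and 1 without the low-signal array. With all arrays 10 of the 52 had an unadjusted p under 0.05, near the share over all probes, 3158 of 15290.

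**Figure D4:**
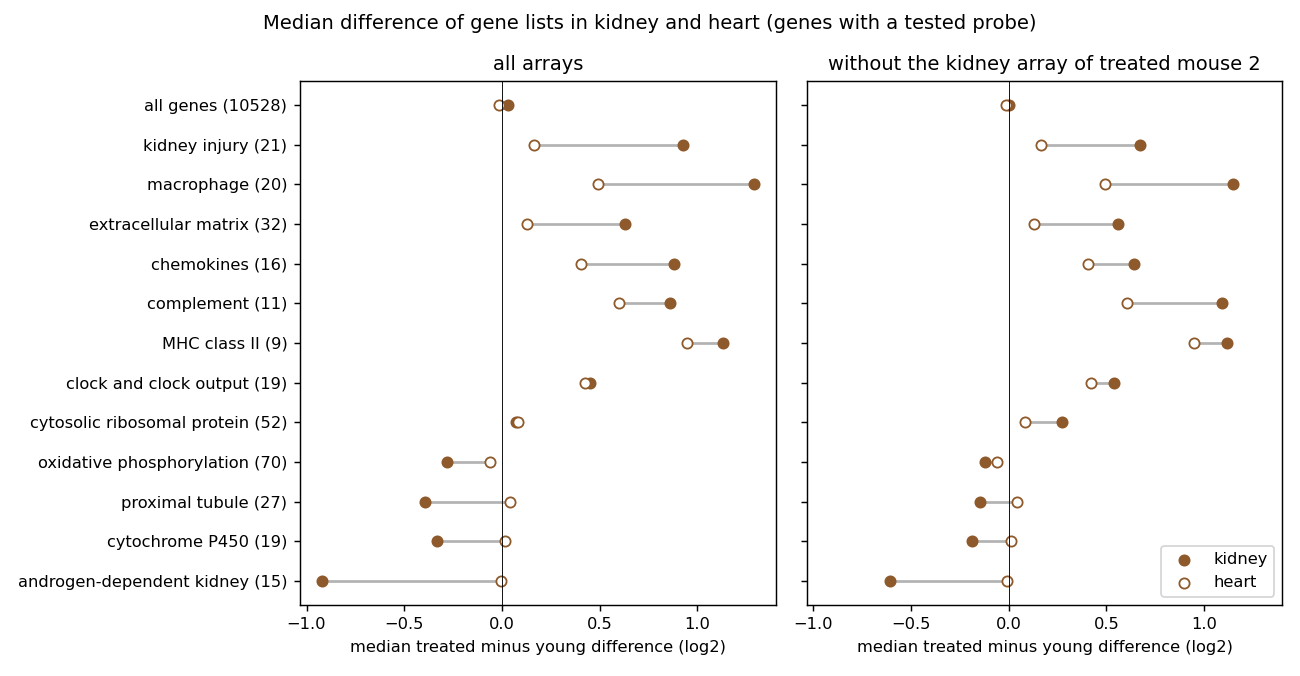
Median treated minus young difference (log2) of the tested genes in 12 lists and over all genes, in kidney (filled) and heart (open), with all arrays on the left and without the kidney array of treated mouse 2 on the right; the number of tested genes is beside each name. With all arrays the medians are 1.29 in kidney and 0.49 in heart for the macrophage list, 0.93 and 0.16 for kidney injury and -0.92 and -0.01 for androgen-dependent kidney genes.

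Lists for other cell types give the background to these differences. The red blood cell markers, 4 tested genes, summed to 13.36 to 13.87 in young kidneys and 11.27 to 13.06 in treated kidneys (from 12.46 without the low-signal array), as log2 levels, and their median interaction was -0.71 with all arrays and -0.655 without the low-signal array. Neutrophil genes had sums of 8.21 to 8.55 in young and 9.48 to 10.09 in treated kidneys, and of 8.26 to 8.77 in young and 9.31 to 10.11 in treated hearts. Liver markers summed to 12.15 to 12.39 in young and 12.24 to 12.84 in treated kidneys. Skeletal muscle markers in heart summed to 13.57 to 13.93 in young and 12.97 to 13.57 in treated mice, and adipocyte markers to 14.64 to 14.81 and 14.58 to 14.73. The part of any of these in the interactions was not tested.

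Of the 37 named genes past the test with all arrays, 13 also passed whichever mouse was removed: Aldh1a1, Vcam1, Fbp2, Havcr1, Kynu, Cfi and Cyp2d12 on the positive side and Cyp2b10, Hsd11b1, Lpl, H4c8, Akr1c18 and Prkcq on the negative side. Without the low-signal kidney array 58 named genes passed, and 43 of them passed whichever mouse was removed. Aldh1a1, Vcam1, Havcr1, Cfi, Cyp2d12, Cyp2b10, Lpl, H4c8, Akr1c18 and Prkcq also passed with all arrays when the heart arrays of treated mice 1 and 3 were left out. With all arrays, 20 of the 37 calls were kept with the mouse as a fixed block, 24 with no mouse term and 23 with median scaling, against 57, 54 and 56 of the 58 without the low-signal array. Under every setting in which the gene was tested, other than grouping by title, 9 of the 37 and 36 of the 58 passed. Some of these, such as Havcr1 and Akr1c18, were not tested under a stricter detection filter. Of the 13 genes above, Vcam1 was lost with median scaling, Fbp2 with the fixed mouse block (adjusted p = 0.0529), and Fbp2, Kynu and Hsd11b1 without those heart arrays, at adjusted p = 0.071, 0.055 and 0.055.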

How the data were processed

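Total RNA from kidney and heart of each mouse was extracted with Trizol and RNeasy and labelled as biotinylated cRNA, per the labels' protocols, and hybridised to an Illumina BeadChip of 25697 probes read with GenomeStudio 2011.1, per the submitters' processing notes. The deposited table held non-normalised intensity with a detection p-value per probe and array, per the file headers, and a second deposited matrix held background-subtracted intensity and served as an alternative. Depth does not apply to arrays, and the number of arrays limits the precision.

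The 20 kidney and heart arrays of 10 mice were background-corrected, quantile-normalised and logged with neqc in limma 3.58.1 (R 4.3.3, offset 16, negative controls inferred from detection p-values). Probes detected at p under 0.05 on at least 2 arrays of kidney or heart were tested with 6 tissue and group means, the mouse as a random effect (estimated correlation 0.153) and empirical Bayes moderation. The mouse identifiers in the labels pair the arrays. Deviations of kidney and heart of the same mouse from their group means correlated at -0.299 to 0.508. A gene is its tested probe with the highest mean level. Of the probes, 23978 carried 1 symbol, 0 several and 1719 none. Nothing in the sources used here ties arrays to chips or scans, so these could not be examined as batches.

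Members, 49 gene lists (1113 genes, 861 tested) and tests were chosen with earlier results of these data known. Genes were named from a pool. It held the 10 largest interactions of each sign among genes past the test and detected in all 4 groups, and the 4 largest of each sign among the rest. It also held up to 3 members of each list with the smallest p, and Mtor, Fkbp1a and C4b. The named genes are the part of the pool that is described. A group with no array above background gives a bound on a fold and no value.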

Additional observations from a re-analysis of the deposited data

Results flagged for a closer look

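Among 231 sets of 4 arrays examined, single arrays stood far from the other 3 in 20 by Dixon's criterion, which chance meets in about 1 set in 20, and 8 of the 20 were the kidney array of treated mouse 2. That array detected 9989 probes and stood apart in Cdkn1c at 11.27, Aoc1 at 9.74, Slc34a3 at 7.44, Hao2 at 8.99, Fam107a at 6.50, Mtor at 7.37 and Aldh1a7 at 7.01. In kidney the array of treated mouse 4 stood apart in Cyp2b10 at 4.89, that of young mouse 1 in Slc22a7 at 7.61 and that of young mouse 2 in Hao2 at 7.17. In heart, treated mouse 3 stood apart in Mmp14 at 7.75, Myo5a at 5.22 and Aacs at 6.22, and treated mouse 2 in Ms4a7 at 6.13. Young mouse 1 stood apart in heart in Edn1 at 6.19 and Gusb at 8.37, and young mouse 2 in Lyz1 at 11.92, in Tbc1d10c at 9.04 and in its 12376 detected probes.

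The treated minus young difference itself differed between kidney and heart, by the interaction test with all arrays, for 93 probes. On the positive side were Kynu at 2.67, Aoc1 at 2.22, Aldh1a1 at 2.09, Havcr1 at 2.08, Cfi at 1.88, Cyp2d12 and Angptl4 at 1.84, Cdkn1c at 1.76, Hao2 at 1.70, Fbp2 at 1.66, Tbc1d10c at 1.56, Hpd at 1.48, Vcam1 at 1.45, Evl at 1.26, Gpt at 1.24, Cyp2a5 at 1.19, Cx3cl1 at 1.18, Mgp at 1.10, Tgfbi at 1.08, Aldh1a7 at 1.03, Dcn at 0.93 and Mmp2 at 0.91. On the negative side were Akr1c18 at -2.72, Cyp2b10 at -2.40, Myh7 at -1.75, Hsd11b1 at -1.69, Myo5a at -1.60, Ace at -1.50, Cyp4a12a at -1.44, Prkcq at -1.31, Aacs, Slc34a3 and H4c8 at -1.25, Lpl at -1.24, Khdrbs3 at -1.21, Kcnk1 at -1.09 and Rragd at -0.67.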

How the results depend on the processing

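With all arrays the count of 93 probes became 690 when the brain arrays joined the normalization and fit, 1239 with array weights, 41 among probes detected on at least 2 arrays of each tissue, 49 with no mouse term, 43 with the mouse as a fixed replicate block, 38 with the replicate number as a block and 15 without the heart arrays of treated mice 1 and 3. Leaving out 1 mouse gave 31 to 1043. Without the low-signal kidney array the count of 585 became 1226 with brain, 1014 with array weights, 361 with no detection filter, 284 with no mouse term, 1072 with the mouse as a fixed block, 271 with the replicate number as a block and 176 without those 2 heart arrays, and leaving out 1 mouse gave 154 to 1043. The cause was not tested, except that fewer arrays enter where some are left out. Median scaling, the authors' deposited matrix, no or weaker background correction, normalization within each tissue, the 4 groups alone, a stricter filter and robust moderation left both counts within 1.5 times, though median scaling moved the median interaction with all arrays to -0.142 and gave 59 higher and 40 lower. A like count need not mean the same probes: the 99 probes past the test with median scaling held 56 of the 93, and the 444 without the low-signal array held 376 of the 585.

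Grouping by title, which sets the treated mice against the 25-month control mice by construction, gave 0 probes in either comparison by limma, with 1049 and 1515 at an unadjusted p under 0.05. Here 2 control mice took the place of the 4 young ones. With so few animals, 0 probes does not show that treated and 25-month control mice were alike. The genes whose sign turned were, with all arrays, Aldh1a1 -0.01, Gsta2 -1.43, Cyp2b10 0.09, Hsd11b1 0.40, Aacs 0.05, Odc1 0.71, Ttr 0.57, Slc22a7 0.87, Gusb 0.77, Acsm3 0.17, Kynu -0.75, Akr1c18 0.08, Hpd -0.06, Angptl4 -0.56, Kcnk1 0.08, Acot1 -0.16, Cyp4a12a 1.27, Cd55 0.70, Slc12a3 -0.31, Ulk2 0.10 and Aldh1a7 -0.36. Without the low-signal array they were Cdkn1c -0.11, Dcn 0.00, Gsta2 -0.87, Hspb1 -0.01, Cyp2b10 0.14, Hsd11b1 0.42, Myo5a 0.10, Aacs 0.06, Odc1 0.39, Ttr 0.10, Slc22a7 0.39, Gusb 0.46, Acsm3 0.83, Kynu -0.85, Akr1c18 0.06, Hpd -0.15, Angptl4 -0.36, Kcnk1 0.16, Acot1 -0.17, Mtor 0.15, Cyp4a12a 1.29, Cd55 0.57 and Aldh1a7 -0.21.

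The interaction of C4b, never past the test in the main comparisons, turned to -0.02 without treated mouse 2 with all arrays and, without the low-signal array, to -0.21 with no background correction, -0.09 with an offset of 50, -0.02 with the fixed block, and -0.02, -0.25 and -0.09 without treated mouse 2, treated mouse 4 and young mouse 2. Over the removal of single mice, C4b ran from -0.02 to 0.98 with all arrays and Fkbp1a, without the low-signal array, from -0.10 to 0.04, the latter turned without treated mouse 3 and at 0 without young mouse 1. Of 3274 values of named genes under the alternatives, 2753 kept sign and side of the threshold, 88 newly passed, 380 no longer passed and 53 turned sign. Probes near background have no measurable difference, which limits genes detected in 1 tissue.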
